A study of Homo sapiens with 8 samples.

Results

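Described here are 166 genes that were near silent in HCT-116 cells without 3-MB-PP1 and crossed a low threshold after 4 h of it. Near silent means a low mean level and not absence. Only 2 to 10 of the 166 genes had 0 counts in a given library without 3-MB-PP1. The 166 genes are 0.749% of the 22149 gene symbols in the deposited tables. Counts were expressed as CPM, in which each library's kept symbols are scaled to the same total. The members were chosen by their measured CPM. A gene was taken when its mean was under 1 CPM in both groups without 3-MB-PP1 and at least 1 CPM in both groups with it. LGR5 was dropped, as were symbols with the form used for olfactory receptors, keratins, small RNAs, antisense or uncharacterised transcripts. This screen read the symbol only, so it may also have dropped other genes with symbols of that form. Transcripts of these kinds under other symbols stayed in the set. Among them are SNAR-G2, FLJ39051 and FLJ45244, and also NCRNA00247 and C10orf25, whose RefSeq names are WDFY3-AS2 and ZNF22-AS1. The contrast of 3-MB-PP1 against DMSO therefore chose the genes. Their levels in that contrast are given as a description and are not tested.

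HCT-116 is an established human colorectal cancer line, and total RNA depleted of rRNA was sequenced in 8 libraries, 2 per group. The groups were 12 h of 40 µM 5-fluorouracil (5-FU, a pyrimidine analogue that blocks thymidylate synthase and is incorporated into RNA) followed by 2.5 µM 3-MB-PP1 for 4 h, DMSO for 12 h followed by 3-MB-PP1, 5-FU followed by DMSO, and DMSO followed by DMSO. 3-MB-PP1 is a bulky ATP analogue that inhibits kinases engineered to accept it, and the title of the series concerns p53 activation and Cdk7 inhibitors. Which kinase allele the cells carried is not stated in the labels, and no group tests 3-MB-PP1 in cells without an engineered kinase. The kept symbols held 12368625 and 12693182 counts after 5-FU and 3-MB-PP1, 49561262 and 10382595 after DMSO and 3-MB-PP1, 14854227 and 16456362 after 5-FU and DMSO, and 12679582 and 13199322 after DMSO and DMSO. A level of 1 CPM was thus 10.4 to 49.6 reads. Epithelial identity was checked with 10 colon epithelium markers, of which 6 were at 1 CPM or more in all 4 groups. Their summed level was 4200 to 4260 CPM after 5-FU and 3-MB-PP1, 2880 CPM in the libraries after DMSO and 3-MB-PP1, 4770 to 4800 CPM after 5-FU and DMSO, and 2680 to 2760 CPM after DMSO and DMSO.

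Many of these genes are known from tissues other than the colon: thyroglobulin from the thyroid, albumin from the liver, TBR1 from cortical neurons. Such genes are usually kept inactive outside their own cell type by the absence of their activating transcription factors and by closed chromatin. RNA polymerase II does not stop at the end of a gene but continues past its cleavage site before it is released, so reads can also arise in a gene that lies downstream of an active gene on the same strand. A gene count of total RNA does not tell where transcription began. For this reason the upstream neighbour of each gene is given with its level.

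The 120 bases before the annotated start are shown for genes that the results turn on, beside those of the expressed gene that precedes them where there is one. They are taken from the RefSeq promoter table of build GRCh38.p14, which gives TMEM194A as NEMP1, run 5′ to 3′ in the direction of the gene, and have each CG dinucleotide, read on the strand shown, in capitals. The RefSeq start need not be the start of the transcript that was counted. MGAM and ALB are members without a near expressed upstream neighbour, at chr7:141995759-141995878 (plus strand) and chr4:73404167-73404286 (plus strand).
MGAM: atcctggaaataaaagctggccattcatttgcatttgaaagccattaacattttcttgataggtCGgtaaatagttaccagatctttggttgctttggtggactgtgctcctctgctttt
ALB: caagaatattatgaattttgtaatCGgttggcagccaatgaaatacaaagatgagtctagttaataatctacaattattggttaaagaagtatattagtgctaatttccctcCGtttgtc

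TBR1, MYO1A and SCG5 are members that follow an expressed gene on the same strand. TBR1 (chr2:161416177-161416296, plus strand) follows PSMD14 (chr2:161308305-161308424, plus strand), MYO1A (chr12:57051199-57051318, minus strand) follows TMEM194A (chr12:57078792-57078911, minus strand), and SCG5 (chr15:32641590-32641709, plus strand) follows ARHGAP11A (chr15:32615024-32615143, plus strand).
TBR1: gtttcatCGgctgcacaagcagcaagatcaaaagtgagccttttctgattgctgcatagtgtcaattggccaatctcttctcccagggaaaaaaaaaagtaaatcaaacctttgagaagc
PSMD14: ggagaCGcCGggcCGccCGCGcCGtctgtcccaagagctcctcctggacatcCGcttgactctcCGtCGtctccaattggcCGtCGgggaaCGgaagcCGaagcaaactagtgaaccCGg
MYO1A: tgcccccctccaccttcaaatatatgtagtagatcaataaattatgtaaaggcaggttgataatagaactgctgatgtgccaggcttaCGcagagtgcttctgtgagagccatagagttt
TMEM194A: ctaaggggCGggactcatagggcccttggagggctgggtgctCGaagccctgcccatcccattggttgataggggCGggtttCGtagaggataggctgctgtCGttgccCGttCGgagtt
SCG5: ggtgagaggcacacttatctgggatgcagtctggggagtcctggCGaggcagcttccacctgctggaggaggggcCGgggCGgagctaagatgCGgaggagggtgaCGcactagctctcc
ARHGAP11A: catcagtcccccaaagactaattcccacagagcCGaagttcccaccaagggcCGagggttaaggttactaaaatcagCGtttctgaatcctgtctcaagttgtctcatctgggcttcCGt

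The window held 1 CG in MGAM, TBR1 and MYO1A, 2 in ALB and 5 in SCG5. It held 14 in PSMD14, 7 in TMEM194A and 4 in ARHGAP11A. Over all 27305 promoters of the table the median was 6, 85.9% held at least 1 CG and 35.7% held at most 2. The members shown do not stand for the set. In the wider promoter window of 300 bases, CG numbered 1 to 11 in the members shown. In that window it numbered 52 in FLRT1, 26 in PNLDC1 and 25 in NLRP14, members that are not shown. A promoter was matched for 113 of the 166 members, or 68.1%. As this is under 80%, a comparison of promoter composition between gene classes would be void, and none is given.

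The members stayed low in absolute terms after 3-MB-PP1. Their median level was 1.45 CPM over the 4 libraries with 3-MB-PP1 and 0.625 CPM over the 4 without it. Per transcript length, in the authors' RPKM, the median was 0.531 with 3-MB-PP1 and 0.195 without, while genes at 1 CPM or more in all groups had a median of 9.03 RPKM with 3-MB-PP1. Only 33 members reached 2 CPM on average with 3-MB-PP1, 3 reached 5 CPM (TG, MGAM and VWA3A) and 2 reached 10 CPM. Summed over the set, the level was 308.1 and 297.9 CPM after 5-FU and 3-MB-PP1, 298.6 and 291.4 CPM after DMSO and 3-MB-PP1, 103.2 and 97.6 CPM after 5-FU and DMSO, and 95 and 87.9 CPM after DMSO and DMSO. The sums with 3-MB-PP1 thus lay between 291.4 and 308.1 CPM whether or not 5-FU had come first. In these bulk libraries a small change in many cells and a larger change in few cells cannot be told apart.

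**Figure D1:**
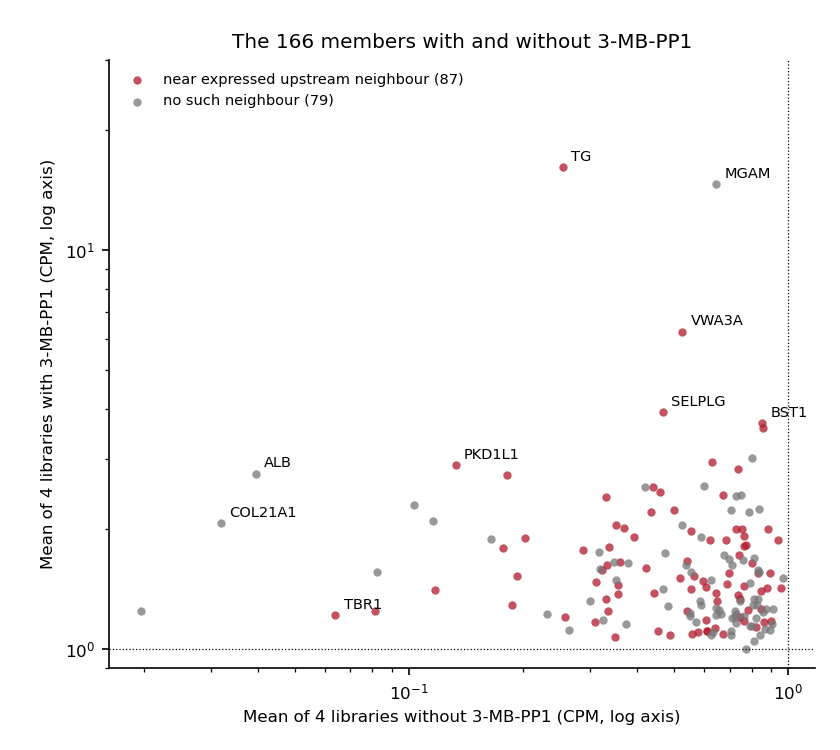
Each point is 1 of the 166 members, with its mean over the 4 libraries with 3-MB-PP1 (vertical, CPM, log axis) against its mean over the 4 libraries without it (horizontal, CPM, log axis). Red points, 87 genes, have an expressed same-strand neighbour under 50000 bases upstream and grey points, 79 genes, do not; dotted lines mark the threshold of 1 CPM that chose the genes, and TG and MGAM lie well above the rest.

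The ratio of the means with and without 3-MB-PP1 had a median of 2.53 and ran from 1.25 to 69.9. It was over 10 for 16 members, over 4 for 50 and under 2 for 57. The set is thus mixed, with a few genes that were nearly empty before and many that crossed the threshold by a small step. In 68 members every library lay on its own side of 1 CPM; over all genes tested, 28.5% were called with 3-MB-PP1 alone and 32.9% with 3-MB-PP1 after 5-FU, and nothing is read from these shares here since the rule used both contrasts. Nearest to the threshold inside the set were NOX5, LRRN3 and BOC. NOX5 averaged 1.0 CPM after 5-FU and 3-MB-PP1 and 1.004 CPM after DMSO and 3-MB-PP1, against 0.735 CPM after 5-FU and DMSO and 0.808 CPM after DMSO and DMSO. Just outside were RTN1, ZNF439 and RSPH4A, which averaged 0.999, 0.999 and 0.998 CPM after 5-FU and 3-MB-PP1. The opposite pattern, at least 1 CPM in both groups without 3-MB-PP1 and under 1 CPM in both with it, was found for 28 genes, or 0.126% of symbols.

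TG, the gene of thyroglobulin, the precursor protein of thyroid hormone, was the highest member. It had 19.3 and 18.3 CPM after 5-FU and 3-MB-PP1 and 13 and 14 CPM after DMSO and 3-MB-PP1, against 0.269 and 0.365 CPM after 5-FU and DMSO and 0.079 and 0.303 CPM after DMSO and DMSO. The groups with 3-MB-PP1 lay far above those without it, and in those given 5-FU first the level was higher than in those given DMSO first. SLA, on the opposite strand, lies within TG, and whether reads were counted by strand is not known from the sources used here.

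MGAM, the maltase-glucoamylase of the intestinal brush border, had 14.6 and 14.4 CPM after 5-FU and 3-MB-PP1 and 16.1 and 13.5 CPM after DMSO and 3-MB-PP1, against 1.21 and 0.668 CPM after 5-FU and DMSO and 0.473 and 0.227 CPM after DMSO and DMSO. VWA3A, which encodes a protein with von Willebrand factor A domains, had 6.14 and 5.12 CPM after 5-FU and 3-MB-PP1 and 8.15 and 5.59 CPM after DMSO and 3-MB-PP1, against 0.741 and 0.972 CPM after 5-FU and DMSO and 0.158 and 0.227 CPM after DMSO and DMSO. For both genes all 4 libraries with 3-MB-PP1 lay above all 4 without it, and in the libraries without it the pair given 5-FU lay above the pair given DMSO throughout.

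ALB, the gene of serum albumin, had the largest ratio, 69.9. It had 2.51 and 2.60 CPM after 5-FU and 3-MB-PP1 and 2.64 and 3.27 CPM after DMSO and 3-MB-PP1, against 0 counts in both libraries after 5-FU and DMSO, and 0.158 CPM and 0 counts after DMSO and DMSO. After 5-FU the ALB level with 3-MB-PP1 was at least 13.3-fold higher, with 3 counts per library taken as the floor. COL21A1, which encodes a collagen that associates with fibrils, had 1.94 and 1.81 CPM after 5-FU and 3-MB-PP1 and 1.53 and 2.99 CPM after DMSO and 3-MB-PP1, against 0.067 and 0.061 CPM after 5-FU and DMSO and 0 counts in both libraries after DMSO and DMSO. TBR1, a T-box transcription factor of cortical neurons, had 1.62 and 1.02 CPM after 5-FU and 3-MB-PP1 and 1.07 and 1.16 CPM after DMSO and 3-MB-PP1, against 0.135 and 0.122 CPM after 5-FU and DMSO and 0 counts in both libraries after DMSO and DMSO. UNC5C, a netrin receptor of growing axons, had 1.29 and 1.02 CPM after 5-FU and 3-MB-PP1 and 1.51 and 1.16 CPM after DMSO and 3-MB-PP1, against 0 counts in both libraries after 5-FU and DMSO, and 0.079 CPM (1 count) and 0 counts after DMSO and DMSO. These 4 genes had the fewest counts without 3-MB-PP1, 1 to 4 over its 4 libraries, and none of their libraries with 3-MB-PP1 overlapped those without it; no member was at 0 counts in all 4 libraries without 3-MB-PP1. Floors cover counting error only.

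**Figure D2:**
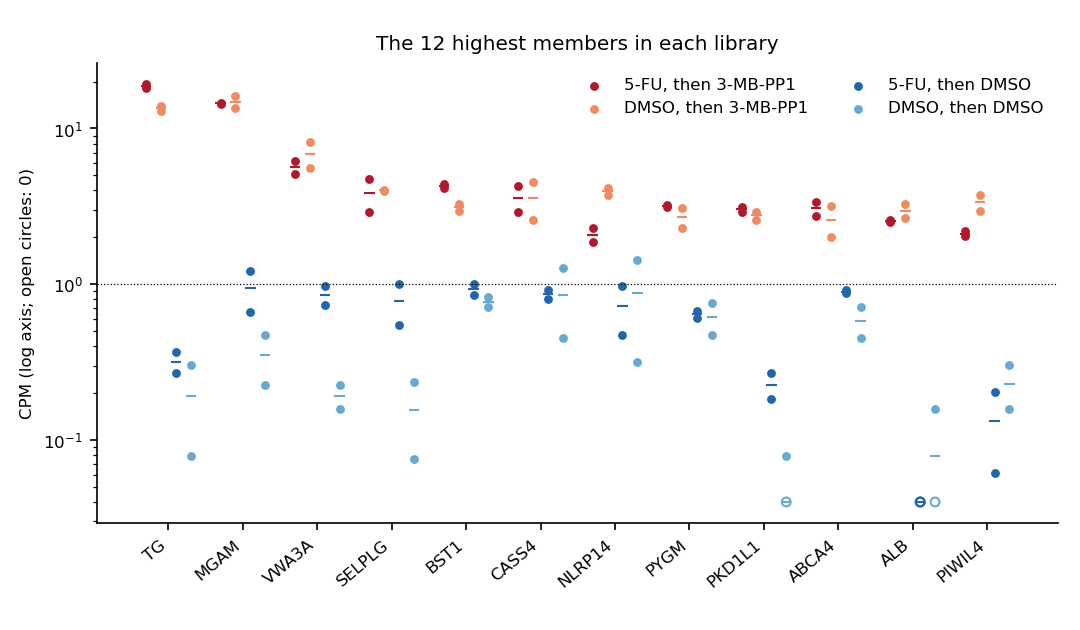
Level in CPM (vertical, log axis) of the 12 members with the highest mean over the libraries with 3-MB-PP1, with each point a library, short lines the mean of the 2 libraries of a group, and open circles libraries with 0 counts placed at the foot of the axis. TG and MGAM lie near or above 13 CPM in every library with 3-MB-PP1, and the other 10 genes lie between 1.86 and 8.15 CPM.

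The other genes among the 12 highest were SELPLG, BST1, CASS4, NLRP14, PYGM, PKD1L1, ABCA4 and PIWIL4. SELPLG, the P-selectin ligand of leukocytes, had 4.77 and 2.92 CPM after 5-FU and 3-MB-PP1 and 4.00 and 4.04 CPM after DMSO and 3-MB-PP1, against 1.01 and 0.547 CPM after 5-FU and DMSO and 0.237 and 0.076 CPM after DMSO and DMSO. PKD1L1, a polycystin family protein of left-right patterning, had 3.15 and 2.92 CPM after 5-FU and 3-MB-PP1 and 2.93 and 2.60 CPM after DMSO and 3-MB-PP1, against 0.269 and 0.182 CPM after 5-FU and DMSO, and 0.079 CPM and 0 counts after DMSO and DMSO. PIWIL4, an Argonaute protein that binds piRNAs in germ cells, had 2.18 and 2.05 CPM after 5-FU and 3-MB-PP1 and 2.97 and 3.76 CPM after DMSO and 3-MB-PP1, against 0.202 and 0.061 CPM after 5-FU and DMSO and 0.158 and 0.303 CPM after DMSO and DMSO. In these 3 genes every library with 3-MB-PP1 lay above every library without it. BST1, an ectoenzyme of bone marrow stroma and myeloid cells, PYGM, the glycogen phosphorylase of muscle, and ABCA4, the retinoid transporter of photoreceptors, had smaller ratios of 4.34, 4.68 and 3.83.

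By authors' RPKM, which divides by transcript length, the order was led by short transcripts. SNAR-G2, a small noncoding RNA of a family with near-identical copies, averaged 9.93 RPKM with 3-MB-PP1 and 4.53 RPKM without, and its copies could share reads. The uncharacterised transcripts FLJ39051 and FLJ45244 averaged 2.92 and 2.06 RPKM with 3-MB-PP1. PSPN (persephin, a neurotrophic ligand) averaged 2.50 RPKM with 3-MB-PP1 and 0.535 RPKM without, BST1 2.44 and 0.562 RPKM, MGAM 2.20 and 0.097 RPKM, and TG 1.87 and 0.029 RPKM. CRYBB2 (a lens crystallin), CPSF4L, VPREB3 (a pre-B-cell receptor protein), IFNA1 (a type I interferon) and SEPT7L averaged 1.74 to 1.94 RPKM with 3-MB-PP1. IFNA1 belongs to a cluster of close copies, so its level of 1.77 RPKM with 3-MB-PP1 and 0.093 RPKM without is uncertain in identity.

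By known role, the members came from many tissues. The role groups below were assigned after the members and their values were known. The intestinal and digestive genes were MGAM, LCT (the lactase of the brush border), CPO (a carboxypeptidase), MYO1A (the brush border myosin) and MUC6 (a gastric mucin), summed at 20 to 20.8 CPM after 5-FU and 3-MB-PP1 and 20.9 to 24.1 CPM after DMSO and 3-MB-PP1, against 2.67 to 3.64 CPM after 5-FU and DMSO and 1.66 to 2.73 CPM after DMSO and DMSO. The liver and plasma genes were ALB, APOE (the apolipoprotein), C1R (a complement protease), SLC10A1 (the bile acid importer of hepatocytes), AOX1 (aldehyde oxidase) and SLC38A4, an amino acid transporter. They summed to 10.7 to 10.8 CPM after 5-FU and 3-MB-PP1 and 10.9 to 11.9 CPM after DMSO and 3-MB-PP1, against 3.43 to 3.77 CPM after 5-FU and DMSO and 2.73 to 3.79 CPM after DMSO and DMSO. In both role groups the sums with 3-MB-PP1 lay wholly above those without it, which the choice of members fixes.

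The group assigned to the nervous system held 14 members, among them TBR1, UNC5C, NXPH2 (a neurexin ligand), RIMS2 (a presynaptic scaffold), GABRR2 (a GABA receptor subunit), SCG5 (a chaperone of prohormone convertase) and CDNF, a neurotrophic factor. The 14 include TPH1, a tryptophan hydroxylase that is not confined to neurons. Of this group, NXPH2 had 1.70 and 1.5 CPM after 5-FU and 3-MB-PP1 and 2.54 and 1.83 CPM after DMSO and 3-MB-PP1, against 0.067 and 0.122 CPM after 5-FU and DMSO and 0.315 and 0.152 CPM after DMSO and DMSO. The retina, lens, ear and taste group held 8 members, among them ABCA4, CRB1 (a photoreceptor polarity protein), GPR179 and LRIT3 (proteins of the retinal ON bipolar cell), CRYBB2, DFNB59 and the taste receptor TAS2R5. CRB1 had 2.67 and 1.89 CPM after 5-FU and 3-MB-PP1 and 2.02 and 1.83 CPM after DMSO and 3-MB-PP1, against 0.202 and 0.182 CPM after 5-FU and DMSO, and 0.079 CPM and 0 counts after DMSO and DMSO. In NXPH2 and CRB1 every library with 3-MB-PP1 lay above every library without it.

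Germ cells and cilia accounted for 12 members, among them PIWIL4, SOX30, TDRD5 and NLRP14 of germ cells, CATSPERG of the sperm calcium channel, and RSPH10B of the axonemal radial spoke, which has a near-identical copy. Immune and blood cell genes numbered 11, among them SELPLG, LAG3 (an inhibitory receptor of T cells), TLR5 (the flagellin receptor), IL23A (a cytokine subunit), ITGA2B (a platelet integrin) and HLA-DMB. Secreted signals and matrix genes numbered 12, among them COL21A1, COL10A1, TGFB2, FGF7, WNT8B, WNT2B, FRZB (a secreted WNT antagonist), FIGF (VEGF-D) and UCN2. The muscle group of 5 genes held PYGM, MYOM1 and NEXN of the sarcomere, DYSF of membrane repair and MSTN (myostatin). The transporter group of 5 held SLC6A12 and SLC6A13, adjacent genes of betaine and GABA uptake, whose levels without 3-MB-PP1 lay between 0 and 0.337 CPM.

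The lists of pathway and tissue genes set beside the members covered 299 genes in the tables, of which 7 were members: TG, COL10A1, COL21A1, TBR1, RIMS2, ALB and ABCA4. Of the 292 other genes, 124 passed the filter on low counts. Of these, 24 were higher and 4 lower with 3-MB-PP1 alone, at a median change of 0.12 on the log2 scale, and 24 were higher and 6 lower with 3-MB-PP1 after 5-FU, at a median of 0.12; the shares of all tested genes called higher were 11.6% and 15.7%. In the muscle sarcomere list, which held no member, 5 of 10 tested genes were higher with 3-MB-PP1 alone and 4 after 5-FU, among them TTN (titin) and NEB (nebulin). Of the liver secreted proteins other than ALB, 2 of 5 tested genes were higher with 3-MB-PP1 alone and 3 with 3-MB-PP1 after 5-FU, among them TF (transferrin) and HPX (hemopexin). Also higher with 3-MB-PP1 alone were 3 of 9 tested axonemal and ciliary genes and 3 of 7 tested endothelial receptors, with 0 lower in either list. Of the transporters other than ABCA4, 2 of 9 tested were higher and 0 lower. Among 20 tested collagens other than the members, 5 were higher and 1 lower. Some other lists did not lean this way. With 3-MB-PP1 alone, 1 of 11 tested neurotransmitter receptors was higher and 2 were lower. Of 10 tested cortical neuron transcription factors other than TBR1, 1 was higher and 1 lower. In the germ cell and the cadherin lists, with 6 tested genes each, 0 were called with 3-MB-PP1 alone. With 3-MB-PP1 after 5-FU, 2 of the germ cell genes were higher and 0 lower, and 0 of the cadherin list were called. In the thyroid list of 18 genes, 8 stayed under 1 CPM in all 4 groups and TG was the only member. Of 7 thyroid follicle markers, 3 were under 1 CPM in all groups. The 7, TG included, summed to 31.6 to 34.6 CPM after 5-FU and 3-MB-PP1 and 27.3 to 27.9 CPM after DMSO and 3-MB-PP1. The sums were 14.2 to 15.6 CPM after 5-FU and DMSO and 12.9 to 14.4 CPM after DMSO and DMSO. Of 7 tested neuron markers, the member TBR1 included, 3 were higher and 0 lower in each comparison of 3-MB-PP1 against DMSO.

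The position of the members along the chromosome was not used by the rule. The nearest gene that starts before a member on the same strand was taken as its upstream neighbour, with the annotation of hg19 in the tables, and it was called near and expressed when the gap was under 50000 bases and its level at least 1 CPM after DMSO and DMSO. This held for 87 of the 166 members, or 52.4%, against 1163 of the 5464 genes that stayed under 1 CPM in all groups (21.3%) and 39.2% of genes at 1 CPM or more in all groups. The median gap to the nearest same-strand upstream gene of any level was 26774.5 bases for members and 64568 bases for the genes that stayed under 1 CPM. Within 10000 bases the shares were 24.7% and 7.87%. Genes are not replicates, so these are counts and carry no test.

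On the downstream side of the same strand, the share with a near expressed neighbour was 22.9% for members and 21.2% for genes that stayed under 1 CPM. On the opposite strand upstream it was 33.1% for members and 18.8% for those genes. An expressed neighbour on the opposite strand under 1000 bases away, or overlapping, preceded 20 members (12.0%), against 3.86% of the genes that stayed under 1 CPM, 17% of genes at 1 CPM or more in all groups and 14.3% of the 28 genes of the opposite pattern. Examples are CRB1 beside ZBTB41, CDNF beside HSPA14, and DFNB59 beside PRKRA. In all, 102 members had either kind of neighbour and 64 had neither.

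**Figure D3:**
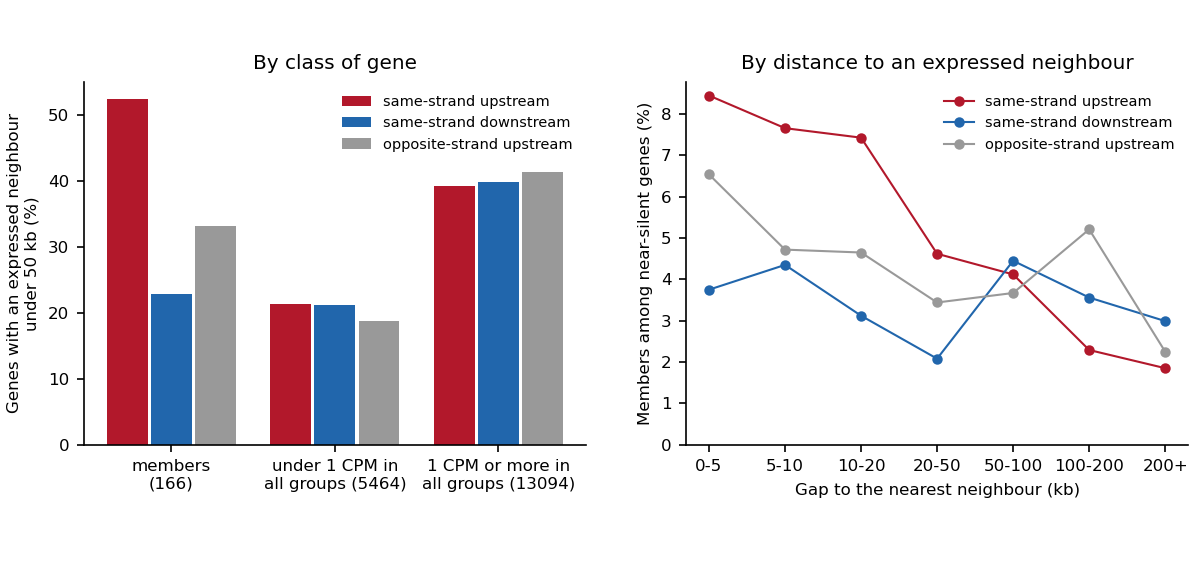
Left, share of genes (%) with a neighbour of at least 1 CPM under 50 kb away, for the members, the genes under 1 CPM in all groups and the genes at 1 CPM or more in all groups. Right, share of members (%) among genes that were near silent without 3-MB-PP1, by the gap in kb to an expressed nearest neighbour; for same-strand upstream neighbours the share was 8.45% at gaps up to 5 kb and 1.85% at 200 kb or more.

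Read the other way, 5786 genes were under 1 CPM in both groups without 3-MB-PP1, and 87 of the 1320 that had a near expressed upstream neighbour were members (6.59%), against 79 of the other 4466 (1.77%). By the gap to an expressed upstream neighbour, the share of members was 8.45% at up to 5 kb, 7.66% at 5 to 10 kb, 7.43% at 10 to 20 kb, 4.62% at 20 to 50 kb, 4.12% at 50 to 100 kb, 2.29% at 100 to 200 kb and 1.85% at 200 kb or more. It was 1.39% where the near neighbour was itself under 1 CPM, 2.42% at 1 to 10 CPM, 8.99% at 10 to 50 CPM and 8.56% at 50 CPM or more. Against the downstream neighbour it was 3.05% with a near expressed one and 2.82% without. Against the opposite-strand upstream neighbour it was 4.77% with a near expressed one and 2.4% without. For that neighbour it was 6.54% at gaps up to 5 kb and 2.25% at 200 kb or more. It was also 1.49% where that neighbour was near and under 1 CPM, and 6.71% where it was near and at 50 CPM or more. Genes that start close to 1 CPM need a smaller step to become members, so the shares were also taken within ranges of the level without 3-MB-PP1. At 0.1 to 0.3 CPM the share was 3.27% with a near expressed upstream neighbour and 1.02% without, at 0.3 to 0.6 CPM 15.2% and 4.93%, and at 0.6 to 1 CPM 33.3% and 20.3%. At 0 to 0.1 CPM only 2 of 667 and 4 of 3213 genes were members (0.3% and 0.124%). The share was higher with such a neighbour in all 4 ranges.

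The 8 shortest gaps to an expressed upstream neighbour belonged to ASPRV1, UCN2, FIGF, CCDC154, LAG3, ADHFE1, PNLDC1 and AOX1. ASPRV1, a skin protease, overlaps the end of LOC400960 on the same strand, and FIGF overlaps the PIR-FIGF transcript, so reads of these 2 genes are uncertain. UCN2, a peptide of the corticotropin-releasing hormone family, starts 304 bases after COL7A1, the anchoring fibril collagen, which had 25 and 27 CPM after 5-FU and 3-MB-PP1 and 18.9 and 21.3 CPM after DMSO and 3-MB-PP1, against 19.4 and 19.9 CPM after 5-FU and DMSO and 8.60 and 10.1 CPM after DMSO and DMSO. COL7A1 itself rose with 3-MB-PP1 alone by 1.03 ± 0.12 (log2 fold change ± SE, edgeR adjusted p = 3.65e-07). CCDC154 starts 443 bases after CLCN7, LAG3 1551 bases after PTMS, ADHFE1 1749 bases after RRS1, PNLDC1 1839 bases after MRPL18 and AOX1 1912 bases after SGOL2. PNLDC1, a nuclease that trims piRNA ends, had 1.78 and 2.99 CPM after 5-FU and 3-MB-PP1 and 1.86 and 1.45 CPM after DMSO and 3-MB-PP1, against 0.606 and 0.486 CPM after 5-FU and DMSO and 0.158 and 0.227 CPM after DMSO and DMSO. Its neighbour MRPL18, a mitochondrial ribosomal protein gene, stayed between 81.9 and 90.9 CPM in all 8 libraries, and did not pass the test with 3-MB-PP1 alone (-0.00 ± 0.06, adjusted p = 0.969).

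Other members also followed expressed genes at gaps of up to 50000 bases. TBR1 starts 4391 bases after PSMD14, a proteasome subunit gene at 211 CPM in both libraries after 5-FU and 3-MB-PP1 and 243 and 249 CPM after DMSO and 3-MB-PP1, against 184 and 208 CPM after 5-FU and DMSO and 232 and 242 CPM after DMSO and DMSO. PYGM lies 3888 bases after SF1, VWA3A 7890 bases after C16orf52, SELPLG 11216 bases after CORO1C, TG 18152 bases after PHF20L1 and ABCA4 47757 bases after ARHGAP29. ALB and NXPH2 had no near upstream gene, and their nearest same-strand genes, NPFFR2 and LRP1B, lay 1256053 and 1451184 bases away. For MGAM the nearest same-strand gene was OR9A4, 76058 bases upstream at 0.039 CPM.

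The neighbours did not share a direction of change with 3-MB-PP1. Over 86 distinct upstream neighbours, with a median level of 38.8 CPM, 11 were higher, 17 lower and 58 did not pass with 3-MB-PP1 alone, and 18 were higher, 17 lower and 51 did not pass with 3-MB-PP1 after 5-FU. The median changes were -0.02 and 0.02 on the log2 scale. Among all genes tested, 11.6% were higher and 16.9% lower with 3-MB-PP1 alone, and 15.7% were higher and 17.2% lower after 5-FU. PHF20L1, upstream of TG, rose by 0.53 ± 0.07 (adjusted p = 1.07e-06) with 3-MB-PP1 alone, and C16orf52, upstream of VWA3A, by 0.55 ± 0.08 (adjusted p = 6.39e-06), while SF1 changed by -0.06 ± 0.05 (adjusted p = 0.384). With edgeR scaled to the ERCC spike-in RNAs, 1 neighbour was called with 3-MB-PP1 alone (4 at an unadjusted p under 0.05) and 0 with 3-MB-PP1 after 5-FU (2 at an unadjusted p under 0.05), where DESeq2 called 22 and 25. Without replicate 2 of 5-FU and 3-MB-PP1, 23 neighbours were called with 3-MB-PP1 after 5-FU, against 35 with all libraries. Spike-in scaling also moved the median of all tested genes by 0.201 with 3-MB-PP1 alone, by -0.118 with 3-MB-PP1 after 5-FU, by -0.192 with 5-FU before 3-MB-PP1 and by 0.123 with 5-FU alone, on the log2 scale. The spike-in share of a library ranged from 1.13% to 2.19%.

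The rule did not use the contrast of 5-FU against DMSO within the cells given 3-MB-PP1, and this contrast was fitted. The rule did ask for at least 1 CPM in both of its groups. A gene that lay under 1 CPM in either group was left out, so differences between them were limited in advance. The calls below hold for single genes that met this floor. edgeR called 7 of the 166 members higher and 5 lower, and 154 did not pass, with a median log2 fold change of 0.07; of all 15705 genes tested, 39.5% were called, 19.6% higher and 19.9% lower. The share of members called was below that of all genes, at levels of few reads and with the floor on both groups. Nothing is read from that difference. FLRT1, a cell adhesion protein, had 3.48 and 3.23 CPM after 5-FU and 3-MB-PP1, against 1.61 and 1.35 CPM after DMSO and 3-MB-PP1, a change of 1.12 ± 0.25 (adjusted p = 0.000881). TG rose by 0.51 ± 0.12 (adjusted p = 0.000903), and in FLRT1 and TG the 2 groups did not overlap. MACROD1, on the opposite strand, reaches or runs past the start of FLRT1. Its gap of 0 bases also stands for overlap, so it does not limit the shared stretch. MACROD1 was at 6.375 CPM after DMSO and DMSO. Whether reads were counted by strand is not known, so the reads of FLRT1 are uncertain. C2orf66, MUC6, CATSPERG, MFNG (a Fringe glycosyltransferase of Notch) and C21orf122 rose by 0.77 to 0.96. DESeq2 called 2 of the members (FLRT1 and TG), and edgeR on spike-in scaling called 0, with 4 at an unadjusted p under 0.05. The count was 5 without either library of 5-FU and 3-MB-PP1 and 4 without the deep library of DMSO and 3-MB-PP1.

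MYO1A had 1.29 and 0.788 CPM after 5-FU and 3-MB-PP1, against 2.22 and 2.79 CPM after DMSO and 3-MB-PP1, a change of -1.18 ± 0.33 (adjusted p = 0.00541). LCT had 1.29 and 1.26 CPM after 5-FU and 3-MB-PP1, against 2.85 and 2.50 CPM after DMSO and 3-MB-PP1, a change of -1.09 ± 0.32 (adjusted p = 0.00769). NLRP14, SCG5 and UBA7, the activating enzyme of ISG15 conjugation, fell by 0.95, 0.94 and 0.90 on the log2 scale. In MYO1A, LCT, SCG5, NLRP14 and UBA7 the libraries after 5-FU and 3-MB-PP1 all lay below those after DMSO and 3-MB-PP1.

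**Figure D4:**
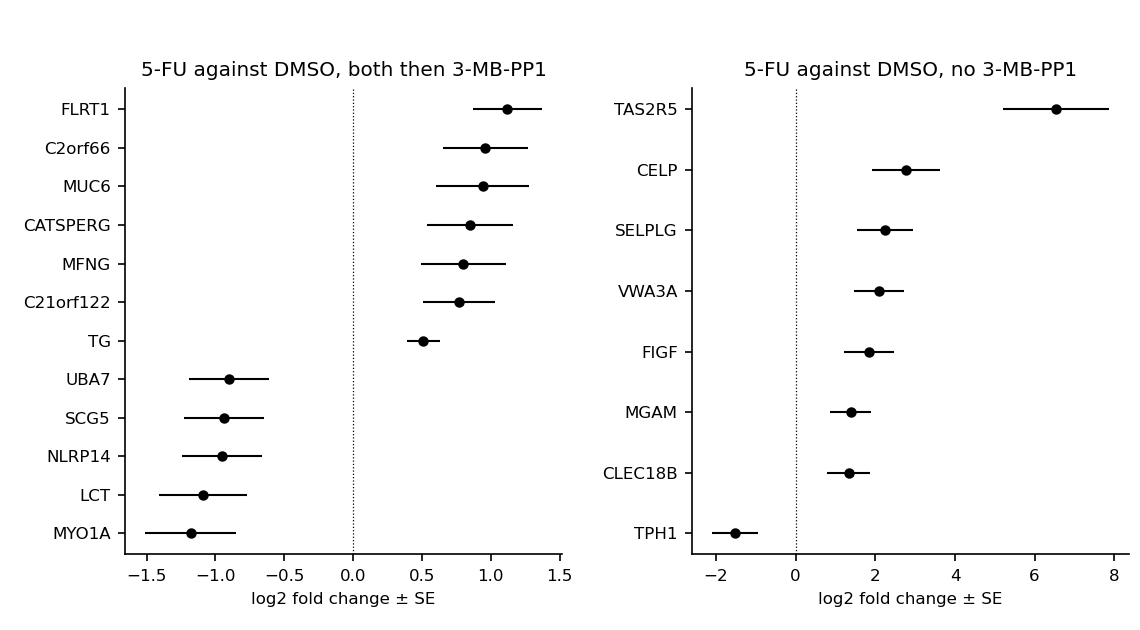
Log2 fold change from edgeR, with the standard error derived from its test, of the members called for 5-FU against DMSO. The cells then received 3-MB-PP1 (left, 12 genes) or DMSO (right, 8 genes). On the left the changes run from -1.18 to 1.12, and on the right TAS2R5, which had 0 counts in both libraries after DMSO and DMSO, stands apart at a fitted value that depends on the prior count; the right panel is a description, as the rule held both of its groups under 1 CPM.

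Of the 12 called members, 8 had a near expressed upstream neighbour. The neighbour was called in 6 of these 8, and in all 6 it moved in the direction of the member. LCT starts 2445 bases after MCM6, a subunit of the replicative helicase, which had 100 and 98.2 CPM after 5-FU and 3-MB-PP1, against 202 and 246 CPM after DMSO and 3-MB-PP1, a change of -1.15 ± 0.07 (adjusted p = 1.26e-12) beside the -1.09 of LCT. MYO1A starts 4876 bases after TMEM194A, which had 23.4 and 22.3 CPM after 5-FU and 3-MB-PP1, against 45.6 and 46.9 CPM after DMSO and 3-MB-PP1, a change of -1.0 ± 0.08 (adjusted p = 1.63e-10) beside -1.18. SCG5 starts 2001 bases after ARHGAP11A, which changed by -0.92 ± 0.06 (adjusted p = 3.18e-12) beside -0.94. In these 3 pairs the member and its neighbour fell by close factors. LCT overlaps LCT-AS1 on the opposite strand.

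UBA7 starts 14636 bases after TRAIP, a ubiquitin ligase of the replication machinery, which fell by 1.42 ± 0.14 on the log2 scale (adjusted p = 4.4e-09) beside the -0.90 of UBA7. C2orf66 starts 22727 bases after PGAP1, an enzyme that remodels GPI anchors, which had 45.2 and 41.6 CPM after 5-FU and 3-MB-PP1, against 19.1 and 21.3 CPM after DMSO and 3-MB-PP1, a change of 1.15 ± 0.09 (adjusted p = 5.53e-11) beside the 0.96 of C2orf66. CATSPERG starts 6793 bases after KCNK6, a potassium channel, which rose by 0.36 ± 0.12 (adjusted p = 0.0162) beside 0.85. TG and MFNG are the exceptions, as PHF20L1 changed by -0.03 ± 0.06 (adjusted p = 0.764) and CARD10 by 0.10 ± 0.08 (adjusted p = 0.394). These member values rest on few libraries. Without replicate 1 of DMSO and 3-MB-PP1 the change was -0.96 for LCT (adjusted p = 0.135), -0.74 for SCG5 (adjusted p = 0.239) and 0.5 for CATSPERG (adjusted p = 0.47). Without replicate 2 of 5-FU and 3-MB-PP1 it was -0.87 for MYO1A (adjusted p = 0.113) and -0.53 for UBA7 (adjusted p = 0.281), and without replicate 1 of that group 0.6 for C2orf66 (adjusted p = 0.314). The member and the neighbour share libraries in each pair, and whether reads of the members begin in the neighbours was not tested.

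Over all 87 pairs, the changes of member and upstream neighbour with 5-FU before 3-MB-PP1 had a Spearman correlation of 0.356 across pairs, with the same sign in 47. Where the neighbour was called, 27 of 43 pairs had the same sign. For the 38 pairs with a near expressed downstream neighbour on the same strand the correlation was 0.127, and for the 55 with one upstream on the opposite strand 0.0219. These are descriptions across genes that share the same 4 libraries. The called pairs named above lie at the ends of the range.

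**Figure D5:**
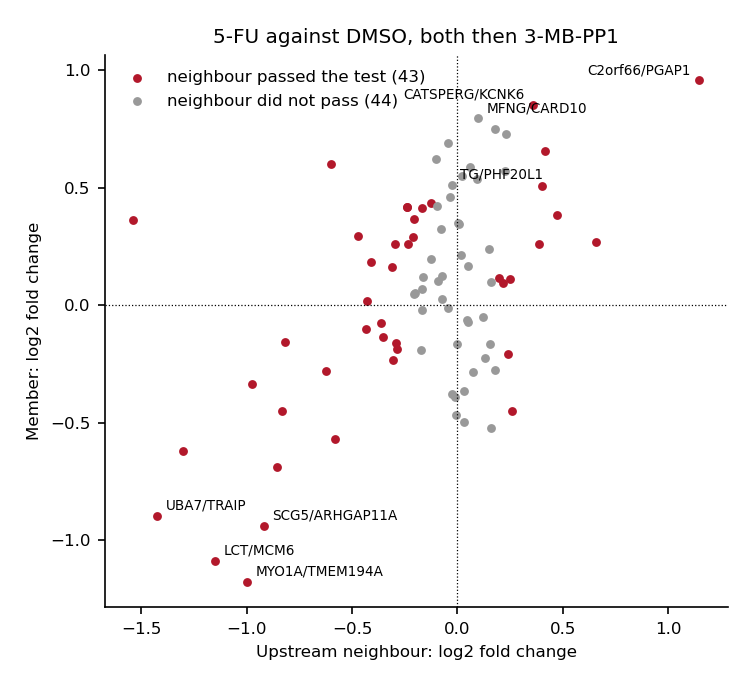
Log2 fold change of the member (vertical) against that of its near expressed upstream neighbour (horizontal) for 5-FU against DMSO, both followed by 3-MB-PP1, in 87 pairs. Red points, 43 pairs, have a neighbour that passed the test; the pairs LCT/MCM6, MYO1A/TMEM194A, SCG5/ARHGAP11A and UBA7/TRAIP lie at the lower left and C2orf66/PGAP1 at the upper right.

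With 5-FU alone, in cells that then received DMSO, the rule held both groups under 1 CPM and the members could pass the low-count filter through the libraries with 3-MB-PP1, so the values are given as a description. edgeR's threshold was passed upward by 7 members (TAS2R5, CELP, SELPLG, VWA3A, FIGF, MGAM and CLEC18B) and downward by TPH1, and 158 did not pass it, while of all genes tested 43.9% did, 21.2% higher and 22.7% lower. TAS2R5, a bitter taste receptor, had 9 and 11 counts after 5-FU and DMSO, against 0 counts in both libraries after DMSO and DMSO, a level at least 2.76-fold higher with 3 counts per library taken as the floor. VWA3A had 11 and 16 counts after 5-FU and DMSO, against 2 and 3 counts after DMSO and DMSO. CELP is a pseudogene and CLEC18B has near-identical copies, so their reads are uncertain. DESeq2 called 4 members, edgeR on spike-in scaling called 1, and the count was 4, 5 and 2 without replicate 1 of 5-FU and DMSO, replicate 2 of 5-FU and DMSO, and replicate 2 of DMSO and DMSO. TPH1 was at 0.394 and 1.59 CPM after DMSO and DMSO, and without the second of these libraries its change was -0.17 in place of -1.52.

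Of these 8 members, 5 had a near expressed upstream neighbour, which was called in 3 and moved in the direction of the member in 2. VWA3A and C16orf52 were both higher after 5-FU and DMSO, by 2.10 and 0.43 on the log2 scale, and TPH1 and SAAL1 were both lower, with changes of -1.52 and -0.81. FIGF differed from its neighbour. It had 0.539 and 1.155 CPM after 5-FU and DMSO, against 0.315 and 0.152 CPM after DMSO and DMSO (1.84 ± 0.62), while PIR, 388 bases upstream, fell by 0.59 ± 0.09 (edgeR adjusted p = 6.27e-06). As the rule held both groups of this contrast under 1 CPM, these pairs are a description, and nothing about shared direction is read from them.

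Some further features limit single genes. Of the 166 members, 146 were coding and 20 noncoding transcripts, 24 overlap a gene on the opposite strand, 6 overlap a gene on the same strand and 2 lie at several places in the genome. RSPH10B and RSPH10B2 had the same fitted changes and the same upstream neighbour, PMS2, and enter as separate members and pairs. Among the 137 members that overlap no other gene and lie at 1 place, 72 had a near expressed upstream neighbour (52.6%), against 21.8% of such genes that stayed under 1 CPM.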

How the data were processed

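Each deposited table held whole read counts per transcript, which the authors had not normalised, and RPKM (reads per length and depth) as the authors computed them. Per the labels the libraries were made from total RNA depleted of rRNA. TopHat2 2.0.13 and hg19 appear in the submitters' processing notes, and hg19 is the build of all coordinates except those of the printed sequences. For the counting program, the strand setting and the annotation release, nothing is stated in the sources used here. Members followed the rule stated in the report, on 22149 symbols, each represented by its transcript with the highest mean count. The members, lists and role groups were chosen with earlier results of these data known.

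For tests, transcripts without a symbol were named by accession where RefSeq allowed (5902 of 6260), and 15705 genes passed filterByExpr. edgeR 4.0.16 (R 4.3.3) fitted 1 quasi-likelihood model to the 4 groups with TMM scaling, and p-values were two-sided, adjusted by Benjamini-Hochberg over all genes and called under 0.05. The SE given was derived from the edgeR test, as the absolute log2 fold change divided by the square root of the F statistic. All 166 members passed the filter, which the libraries with 3-MB-PP1 could suffice for. The fit was tested on simulated data. DESeq2 1.42.0, no filter, spike-in scaling, a replicate block and leaving out each library were the alternatives. The labels do not say whether replicates were separate cultures, so a p-value measures only how these samples spread, which may be technical. Named were the 12 highest members by CPM and by RPKM, the 10 largest members called for 5-FU before 3-MB-PP1, the 8 shortest gaps, list members and the 6 genes nearest the threshold; no member had 0 counts in all 4 libraries without 3-MB-PP1, and any other gene was picked with its values in view.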

Additional observations from a re-analysis of the deposited data

How the results depend on the processing

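The number of members by rule ranged from 149 to 175 without 1 library, was 115 at 2 CPM (22 of them among the 166) and 186 at 0.5 CPM (43 among the 166), so that these thresholds choose largely different genes, and was 68 with every library on its side of 1 CPM. The share with a near expressed upstream neighbour ranged from 50.3% to 56.0% without 1 library and was 24.7% within 10000 bases and 63.3% within 100000 bases, by construction of the window. With spike-in scaling the calls over all genes were 140 for 5-FU before 3-MB-PP1, 243 for 5-FU alone, 112 for 3-MB-PP1 alone and 53 for 3-MB-PP1 after 5-FU, against 6204, 6893, 4469 and 5170 with TMM; members called were 0 and 1 and neighbours called 1 and 0, and the cause was not tested. DESeq2 called 4485 genes for 5-FU before 3-MB-PP1, 5334 for 5-FU alone, 2682 for 3-MB-PP1 alone and 3379 for 3-MB-PP1 after 5-FU. Its calls included 2 members for 5-FU before 3-MB-PP1 and 4 members for 5-FU alone. Without 1 library, in which the lone sample of a group is assumed to vary like the other groups, calls over all genes ranged from 4522 to 6252, 5456 to 7027, 2972 to 4554 and 3338 to 5362 in the same order, members called from 4 to 12 and 2 to 7, and neighbours called from 21 to 29 and 23 to 37. Same-numbered libraries of different groups did not deviate together (correlations of -0.0578 to 0.0459), so the numbers were not taken as pairs; with the replicate block the 4 comparisons gave 6254, 6934, 4514 and 5228 calls, members called were 12 and 7, and MUC6 and CLEC18B lost their calls (adjusted p = 0.0503 and 0.0553). No change of a single member reversed in sign in 240 gene-level alternatives, of which 151 kept the call and 89 lost it. The 2 alternatives chosen after seeing the data, taking the nearest expressed upstream gene and leaving out overlapping genes, gave shares of 56.0% and 52.6%. With 10.4 reads at 1 CPM in the shallowest library, small changes of single members were not detectable.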

Other observations

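Some members lay next to each other. SLC6A12, a betaine transporter, had 1.94 and 2.84 CPM after 5-FU and 3-MB-PP1 and 2.20 and 2.21 CPM after DMSO and 3-MB-PP1, against 0.337 CPM and 0 counts after 5-FU and DMSO, and 0 counts and 0.076 CPM after DMSO and DMSO. It starts 6415 bases after SLC6A13, a GABA transporter that is also a member, which starts 17183 bases after KDM5A, a histone demethylase gene at 69.2 CPM after DMSO and DMSO. AOX2P, a pseudogene, starts 24228 bases after AOX1, which starts 1912 bases after SGOL2, so here too a member followed a member that followed an expressed gene. On chromosome 7, TAS2R5 starts 39728 bases and MGAM 245390 bases after SSBP1, the nearest expressed gene upstream of both on the same strand.

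The neighbours of members had a median level of 38.8 CPM after DMSO and DMSO, and the neighbours of other near-silent genes one of 22.8 CPM over 1221 genes. With 5-FU before 3-MB-PP1, 12 of the 86 neighbours of members were higher and 30 lower (14% and 34.9%), where all genes tested had 19.6% and 19.9%. These are counts without a test of the difference.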
